A study of Drosophila melanogaster with 9 samples.

Results

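The genes described here encode the cytoplasmic factors that start, extend and end protein synthesis: the initiation factors (symbols starting eIF), the elongation factors (eEF) and the release factors (eRF). They were chosen by symbol alone, from the names that the BDGP6 annotation of Ensembl gives to the gene IDs of the count tables. This gave 52 of the 17024 IDs, of which 44 were initiation factors, 6 were elongation factors and 2 were release factors. The annotation holds 54 such genes. The IDs of eEF1alpha1, which encodes the main form of eEF1A, and of eEF5 matched none in the tables, and both are not analysed here, so every sum over the elongation factors lacks them. Of the 52 genes, 44 had enough counts to be tested (36 initiation, 6 elongation and 2 release factors).

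The RNA came from ovaries of Drosophila melanogaster of the genotype aramis::GFP::FLAG, dissected 1 to 3 days post-eclosion. Aramis is an RNA helicase, named in the series title in connection with translation control, stem cell differentiation and ribosome production. Lysates went into an immunoprecipitation of RNA, where an antibody pulls down a protein and the RNA that comes with it is sequenced. The 3 groups were IP (antibody against FLAG), IgG (control mouse IgG) and Input (10% of the lysate, kept back for direct extraction), with 3 replicates each. All 9 libraries carried the tagged gene, so no group shows what anti-FLAG beads recover from untagged ovaries. The samples' titles and genotype give aramis as the tagged gene, which was followed here, although the series' design text gives Larp. The labels do not say whether replicates came from separate dissections, and the p-values therefore measure the spread between these libraries, which may be technical. Poly(A) RNA was sequenced, so a level is the share of an mRNA in the library and not an amount recovered.

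Translation of most mRNAs starts when eIF4E binds the cap, the scaffold eIF4G joins it to the helicase eIF4A, and the small ribosomal subunit, carrying eIF1, eIF1A, eIF3 and the initiator tRNA held by eIF2, is recruited and scans for the start codon. eIF2B recharges eIF2 with GTP, and eIF5B joins the large subunit. During elongation eEF1A delivers aminoacyl-tRNA and is recharged by the eEF1 exchange complex (eEF1beta, eEF1delta and eEF1gamma), and eEF2 moves the ribosome along by a codon. At the stop codon eRF1 and eRF3 release the finished protein. In animals the mRNAs of ribosomal proteins and of several elongation factors often start with a C and an unbroken run of pyrimidines (a terminal oligopyrimidine tract), through which growth signals control their translation, and La-related proteins such as Larp bind such tracts.

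Libraries held 30533376 to 47080956 counts, and the factor genes took 1.74 to 1.76% of them in IP, 1.64 to 1.91% in IgG and 2.37 to 2.43% in Input. All 8 germline markers and all 8 follicle cell markers of a fixed list were present in every group. Of the 8 follicle cell markers 6 were called higher in IP than in Input (28.7% of all genes). IgG over Input likewise gave 6 rises among them (10.3% of all genes). IP over IgG gave 1 rise (4.22% of all genes) and 1 fall (3.40%). Of the 8 germline markers 2 were called higher (28.7% of all genes) and 4 lower (30.6%) in IP than in Input. Muscle genes, which belong to the sheath around the ovary or to carcass tissue, were uneven: 11 matched markers summed to 171 to 1184 CPM in IP, 706 to 3709 CPM in IgG and 258 to 484 CPM in Input, with 1 of the 11 at 0 in all IgG libraries. Of the 10 muscle markers tested, 8 were called higher in IgG than in Input (10.3% of all genes) and 2 higher in IP than in Input (28.7%). The part of muscle RNA in the results below was not tested. A feature with the malformed ID FBgn000003 took 0.684 to 1.04% of counts in IP, 5.89 to 14.6% in IgG and 0.0113 to 0.0612% in Input. CPM are counts relative to library size after scaling by TMM (trimmed mean of M-values) factors, which give little weight to single extreme features. Fold changes and adjusted p-values are from edgeR's quasi-likelihood test over 8789 genes, and a gene was called at a Benjamini-Hochberg adjusted p under 0.05.

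Factor mRNAs were on the low side in the anti-FLAG pulldown. Against Input, 27 of the 44 tested factors were called lower in IP and 2 were called higher (eEF1delta and eIF2Bdelta), and the median log2 fold change was -0.37 for the factors and 0.01 for all genes tested. Input was kept back from the lysate, so a lower share in IP describes the RNA of the pulldown. Whether RNA of particular cells or tissues, recovered more or less, moved these shares was not tested. Over all genes tested, 59.3% were called, 30.6% lower in IP than in Input and 28.7% higher. Against IgG, 9 of the 44 factors were called lower in IP (eEF1beta, eEF1gamma, eRF1, eIF1, eIF1A, eIF2beta, eIF3h, eIF4A and eIF4E1) and 1 was called higher (eIF5B), where 7.62% of all genes were called, 3.40% lower and 4.22% higher. The median of the factors against IgG was -0.28. Both comparisons share the IP libraries. In both of them, 8 factors were called lower in IP, all those named against IgG except eIF2beta, against 2.72% of all genes. By edgeR 0 factors were called higher in both (3.70% of all genes were), and the count was also 0 at an unadjusted p under 0.05 in both and 0 by DESeq2. When libraries were scaled by their totals in place of TMM, the median of all genes moved to 0.217 in IP over IgG. The calls among the factors became 4 lower and 6 higher, where the shares over all genes were 1.88% lower and 11.7% higher.

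Counted without a test, the CPM values of IP lay wholly below those of Input in 28 of the 44 factors (34.4% of all genes) and wholly above in 3 (32.3%). They lay wholly below those of IgG in 18 (13.0%) and wholly above in 7 (20.2%).

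The control pulldown was itself unlike the lysate. Values of IgG lay wholly below those of Input in 22 factors (29.1% of all genes) and wholly above in 7 (18.8%). In IgG over Input 26.9% of all genes were called, and among the 44 factors 21 were called lower in IgG (16.6% of all genes) and 4 were called higher (10.3%): eEF1delta, eEF1gamma, eIF2beta and eIF3f1. With the replicate number as a block 18 calls were made, and those of eEF1gamma, eIF3d1, eIF3j, eIF3l, eIF3m, eIF4E5 and eIF4G1 were lost. Without Input replicate 1 or 2 there were 5 calls and without Input replicate 3 there were 7, all lower. Calls over all genes fell too, to 22.1% with the block and to 5.02%, 4.99% and 5.43% without Input replicate 1, 2 and 3. The median log2 fold change of the factors in IgG over Input was -0.24.

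**Figure D1:**
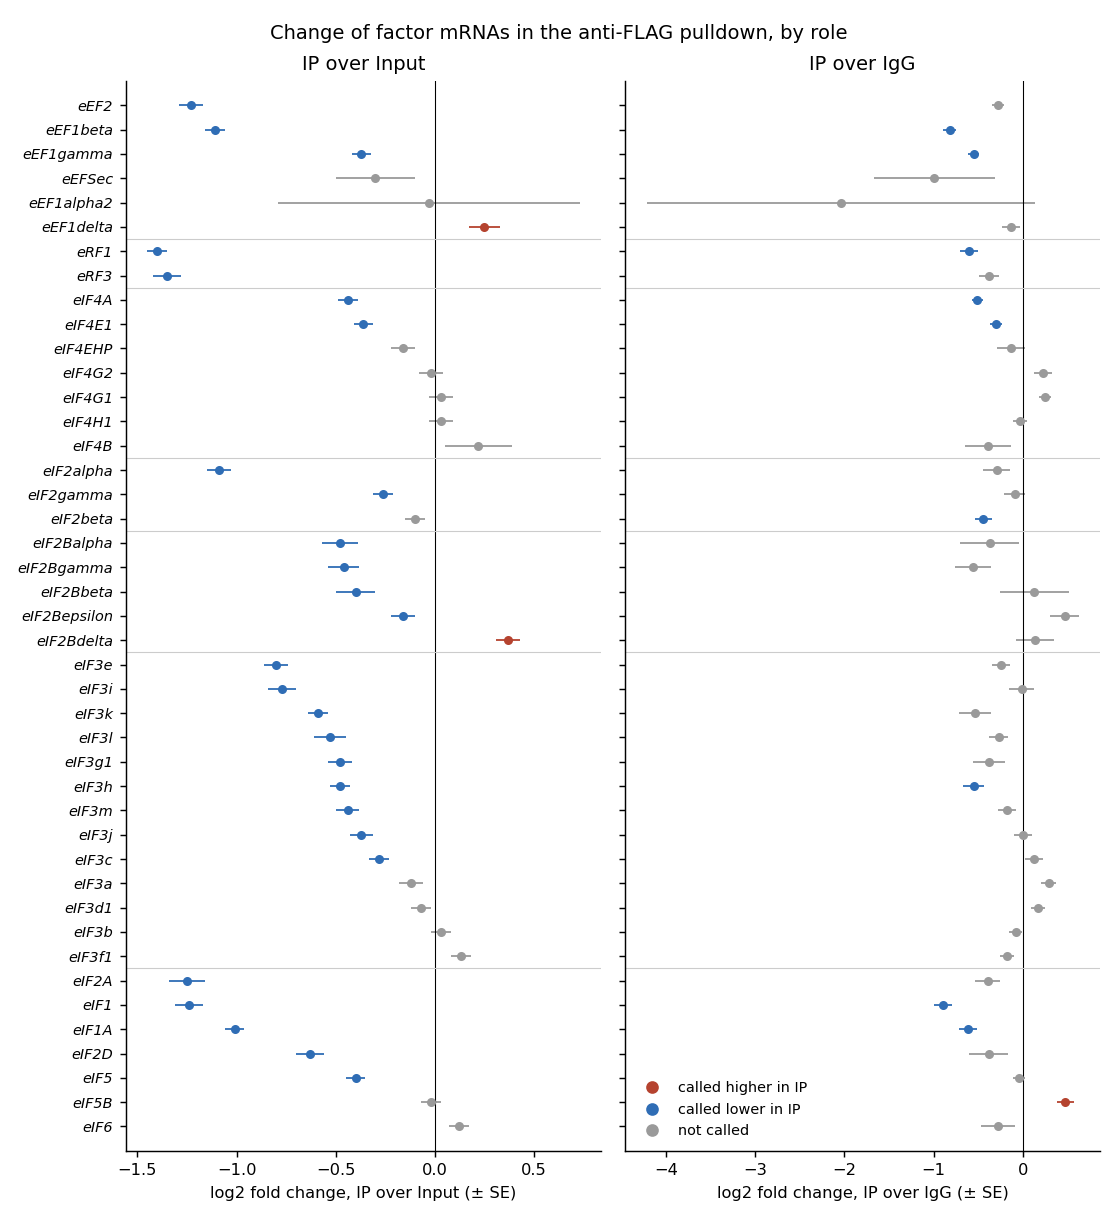
Log2 fold changes (points) with their standard errors (bars) of the tested factors in IP over Input (left) and IP over IgG (right), with a separate horizontal axis for each panel. Genes are grouped by role, from elongation and release factors at the top through the cap complex, eIF2, eIF2B and eIF3 to the remaining initiation factors. Points called lower in IP are blue and those called higher are red; eIF4E5, which had 0 counts in every IgG library, is left out.

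The surroundings of the annotated start of each factor's canonical transcript were read for pyrimidine runs from the Release 6 genome of RefSeq. The window had 30 bases, with 10 bases before the start, the start itself and 19 bases after it. A run was counted where a C was followed by at least 6 further C or T in the direction of transcription, anywhere in the window. It was found in 11 of the 44 tested factors (25.0%), in 55 of 81 tested cytoplasmic ribosomal protein genes (67.9%) and in 487 of 8556 tested genes with a window (5.69%). Those with a run were 3 of 6 elongation factors (eEF1beta, eEF1gamma and eEF2), 8 of 36 initiation factors (eIF1A, eIF3e, eIF3f1, eIF3g1, eIF3i, eIF3l, eIF4A and eIF4E1) and 0 of 2 release factors. The following windows show runs in capitals at eEF2 (chr2L:21682097-21682126, minus strand), eEF1gamma (chr3R:29220162-29220191, plus strand), eIF4A (chr2L:5981754-5981783, plus strand), eIF4E1 (chr3L:9402441-9402470, minus strand), eIF1A (chr3R:18274688-18274717, plus strand), eIF3e (chr3L:16786922-16786951, minus strand) and eIF3f1 (chr3R:4714163-4714192, minus strand), each written 5′ to 3′ in the direction of transcription.
eEF2: tgcagcgcctcgCTCTTTCCTgtcgaaacg
eEF1gamma: ctgcagccctgtttccgtCCCTTCTCTTCT
eIF4A: gcaagatggagCCTCTTTTgcttggtttta
eIF4E1: cggtcgctcgtcactaaCTTTCCTTTaggc
eIF1A: gaaaccgtccacctctagtCCTTTTCactt
eIF3e: ctctgagcgggcgtcaCTCTTTTCgtctct
eIF3f1: actatcgataggCCCTTTTCTTgcatccct

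The 4 factors with the lowest log2 fold changes in IP over Input after eRF1 and eRF3 were eIF2A, eIF1, eEF2 and eEF1beta, and of these 6 genes only eEF2 and eEF1beta held a run. The windows of eRF1 (chr3L:20348345-20348374, plus strand), eRF3 (chr2L:12434442-12434471, plus strand) and eIF1 (chr3L:3223331-3223360, plus strand) are shown for this contrast and have no capitals.
eRF1: cggagatttgccacccctattttttgagct
eRF3: cgataacaccgcatacaagtggcaaccctg
eIF1: acactcgatagtatcgattagaaatcgatt

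Of the 27 factors called lower in IP than in Input 10 held a run, against 1 of the other 17 (eIF3f1). Over all genes tested 30.6% were called lower in that comparison, and 5.69% of those with a window held a run. Calls among all genes with a run were not counted, so no share over such genes stands beside these counts. With a minimum of 6 bases in place of 7 the counts were 10 of 27 and 3 of 17, since eEF1delta and eIF5B then entered, and with a minimum of 8 they were 7 of 27 and 1 of 17. These shares are a description of windows at annotated starts, in which a run need not open the transcript. A transcript may start at other bases, and the absence of a run says only that these letters were not found in the window.

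**Figure D2:**
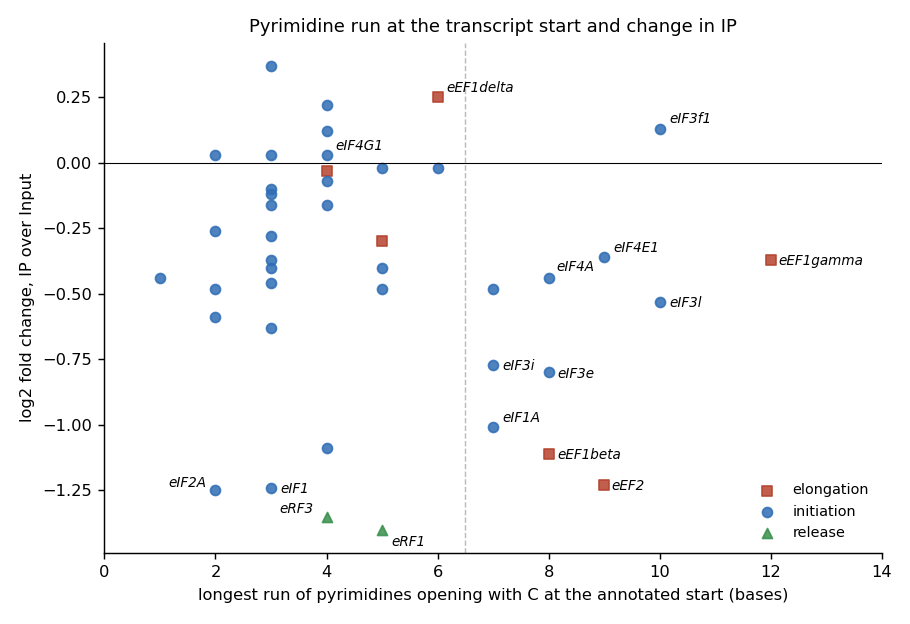
Longest run of pyrimidines that opens with a C in the window of 30 bases at the annotated transcript start (horizontal axis, bases) against the log2 fold change in IP over Input (vertical axis) for the tested factors, without eIF4E5. The dashed line separates runs of at least 7 bases, where 10 of 11 factors were called lower in IP, from shorter ones. Over all genes tested, with or without a run, 30.6% were called lower. eRF1, eRF3, eIF1 and eIF2A lie lowest on the left.

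Among the elongation factors the changes were uneven, and they did not follow the membership of one complex. eEF2 (FBgn0000559, chr2L:21677913-21682164, minus strand), the translocase, was the most abundant mRNA of the lysate among the factors analysed, which lack eEF1alpha1 and eEF5, at 1991 ± 72.9 CPM per kb of exon in Input (SD, n = 3). It had 2514, 2559 and 2683 CPM in IP, 3150, 2899 and 3362 CPM in IgG and 6218, 6209 and 5828 CPM in Input. Both pulldowns lay far below the lysate, with IP also below IgG in every library. The fold change in IP over Input was 2.35-fold lower (log2 -1.23 ± 0.06 SE, adjusted p = 1.85e-07), and that in IgG over Input was log2 -0.96 ± 0.07 (adjusted p = 0.0011). In IP over IgG the log2 fold change of -0.28 ± 0.07 did not pass the threshold (adjusted p = 0.054), though it did by DESeq2 (adjusted p = 0.000906) and with the replicate block (adjusted p = 0.00206).

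The 3 subunits of the eEF1 exchange complex did not move together. eEF1beta (FBgn0028737, chr2R:16868222-16869280, plus strand), the exchange subunit for eEF1A, had 377, 362 and 364 CPM in IP, 680.0, 624 and 648 CPM in IgG and 810.0, 776 and 796 CPM in Input. It was lowest in IP in every library, at 2.16-fold below Input (log2 -1.11 ± 0.05 SE, adjusted p = 9.91e-08) and 1.77-fold below IgG (log2 -0.82 ± 0.07, adjusted p = 0.000496). eEF1gamma (FBgn0029176, chr3R:29220172-29222109, plus strand), the structural subunit, had 1584, 1528 and 1486 CPM in IP, 2234, 2232 and 2266 CPM in IgG and 1990, 1981 and 1990 CPM in Input. Its 3 groups did not overlap, with IP lowest and IgG highest. It fell by 0.37 on the log2 scale in IP over Input (adjusted p = 0.000169) and by 0.55 in IP over IgG (adjusted p = 0.00117). These 2 genes kept both IP calls in each of the 17 alternative settings.

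eEF1delta (FBgn0032198, chr2L:10232507-10234450, plus strand), another exchange subunit, went the other way against the lysate. It had 550.0, 605 and 670.0 CPM in IP, 666, 712 and 618 CPM in IgG and 477, 499 and 564 CPM in Input, and the IP and Input values overlapped. The rise in IP over Input was small (log2 0.25 ± 0.08 SE, adjusted p = 0.0297), and the call was lost in 5 of 17 alternatives, among them the fits without IP replicate 2 or 3 and without Input replicate 1 or 2. In IP over IgG its log2 fold change was -0.13 ± 0.10 (adjusted p = 0.46), and in IgG over Input it was 0.37 ± 0.09 (adjusted p = 0.0232). Within the complex, eEF1beta and eEF1delta thus stood at 383 ± 8.37 and 656 ± 64.4 CPM per kb in IP, at 678 ± 29.3 and 717 ± 50.8 in IgG and at 827 ± 17.7 and 553 ± 49.0 in Input (SD, n = 3 each).

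The remaining elongation factors were scarce. eEFSec, which brings selenocysteine tRNA to the ribosome, had 6.42, 10.8 and 10.2 CPM in IP, 24.6, 26.5 and 3.26 CPM in IgG and 10.6, 12.1 and 11.0 CPM in Input. The IgG libraries disagreed with each other by more than the groups did, and none of the 3 comparisons passed the test. Without IgG replicate 3, whose value was the lowest, eEFSec was called lower in IP than in IgG (log2 -1.49, adjusted p = 0.0396) and higher in IgG than in Input (log2 1.18, adjusted p = 0.0104), against -0.99 and 0.69 with all libraries. eEF1alpha2, the second eEF1A gene, had 31, 22 and 5 counts in IP, 0, 4 and 248 counts in IgG and 18, 29 and 15 counts in Input. Nearly all of its IgG counts thus lay in replicate 3, and its log2 fold change of -2.04 ± 2.18 in IP over IgG (adjusted p = 0.635) became 2.67 without that library. That library was also the IgG library with the lowest level of each of the 9 muscle markers that were above 0 in all 3 IgG libraries, with the highest level of apolpp, a fat body gene. Their part in this value was not tested.

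**Figure D3:**
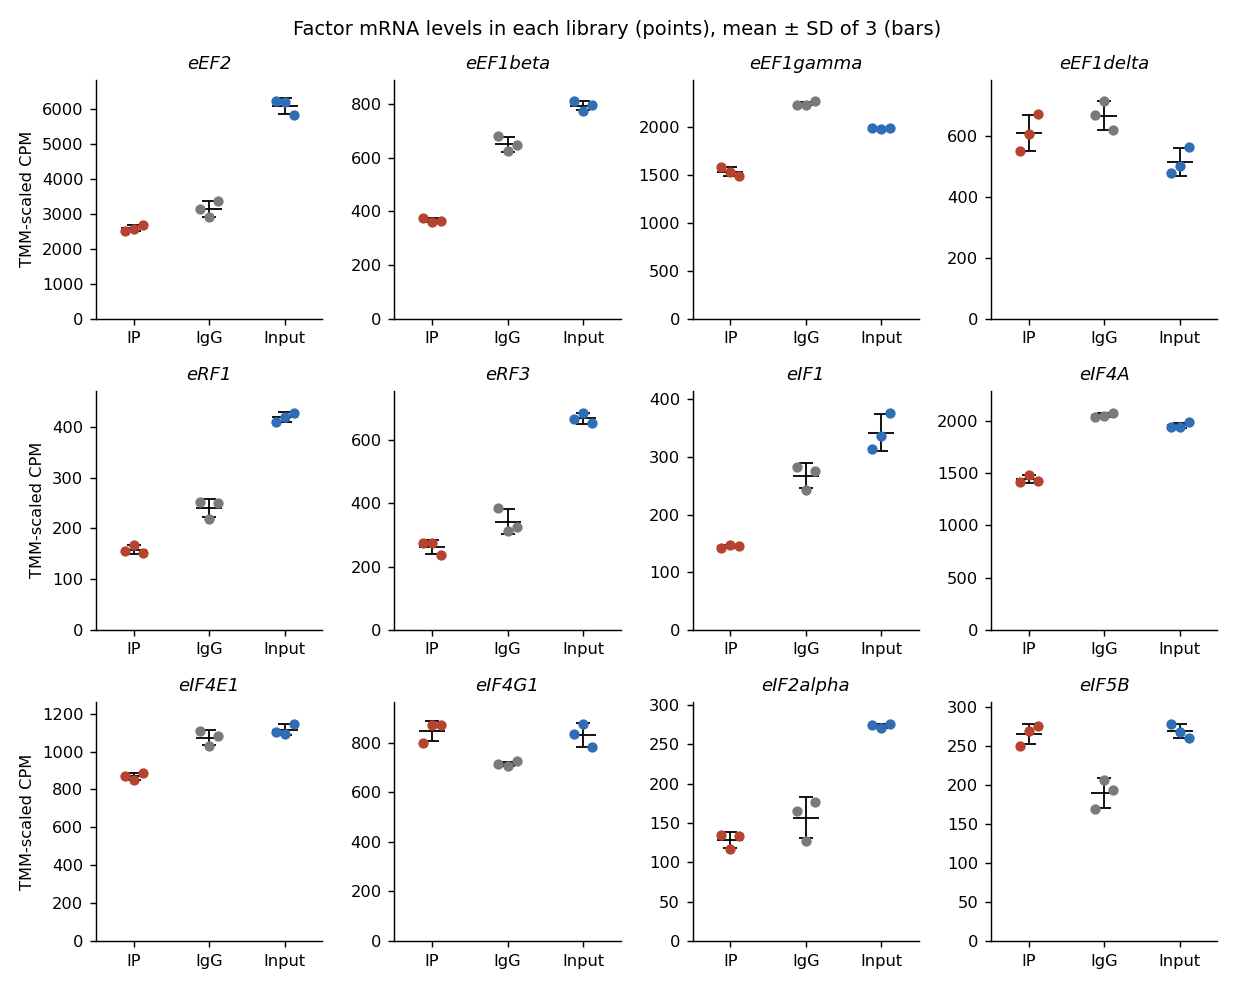
TMM-scaled CPM of 12 factor mRNAs (vertical axes, starting at 0) in each library, with IP, IgG and Input from left to right; points are libraries, and bars show the mean and SD of 3. IP lies below both other groups for eEF2, eEF1beta, eEF1gamma, eRF1, eRF3, eIF1, eIF4A and eIF4E1, whereas eIF4G1 and eIF5B lie at the level of Input and above IgG.

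Both release factors were among the lowest in IP. eRF1 (FBgn0036974, chr3L:20348355-20353873, plus strand), which recognises all stop codons, had 156, 167 and 151 CPM in IP, 252, 219 and 249 CPM in IgG and 409, 419 and 428 CPM in Input. The groups were ordered IP, IgG, Input without overlap. It was 2.65-fold lower in IP than in Input (log2 -1.40 ± 0.05 SE, adjusted p = 4.58e-08), the largest fall among the tested factors, and 1.52-fold lower in IP than in IgG (log2 -0.60 ± 0.10, adjusted p = 0.00913). The call against IgG was lost without IP replicate 1 or 3 and with scaling by library totals. eRF3 (FBgn0020443, chr2L:12434452-12441279, plus strand), the GTPase that acts with eRF1, had 275, 275 and 235 CPM in IP, 386, 312 and 325 CPM in IgG and 666, 687 and 653 CPM in Input. It showed the same order without overlap, at 2.55-fold lower in IP than in Input (log2 -1.35 ± 0.07, adjusted p = 2.2e-07), while the difference from IgG did not pass (log2 -0.38 ± 0.11, adjusted p = 0.0794), though it did by DESeq2 (adjusted p = 0.016) and in 4 other alternatives. Both mRNAs were also lower in IgG than in Input (log2 -0.80 ± 0.07 for eRF1, adjusted p = 0.00212, and -0.97 ± 0.09 for eRF3, adjusted p = 0.00229), in each of the 17 alternatives. Per kb of exon eRF1 and eRF3 stood at 50.8 ± 2.51 and 59.4 ± 5.27 CPM in IP, 77.0 ± 5.93 and 77.3 ± 8.94 CPM in IgG and 135 ± 3.01 and 152 ± 3.94 CPM in Input (SD, n = 3 each), so eRF3 was the higher in IP and Input while the difference in IgG was smaller than the spread.

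The scanning, joining and other initiation factors held the largest falls of that class, with 5 of 7 called lower in IP than in Input (30.6% of all genes). eIF1 (FBgn0035423, chr3L:3223341-3224650, plus strand), which guards start codon choice, had 142, 147 and 145 CPM in IP, 283, 243 and 276 CPM in IgG and 313, 336 and 377 CPM in Input. The IP values did not overlap those of either other group. It was 2.36-fold lower in IP than in Input (log2 -1.24 ± 0.07 SE, adjusted p = 3.58e-07) and 1.85-fold lower than in IgG (log2 -0.89 ± 0.10, adjusted p = 0.00122), both in each of the 17 alternatives. eIF1A (FBgn0026250, chr3R:18274665-18283005, plus strand), its partner in scanning, had 227, 222 and 206 CPM in IP, 361, 304 and 333 CPM in IgG and 432, 454 and 438 CPM in Input. It followed the same order, with log2 fold changes of -1.01 ± 0.05 in IP over Input (adjusted p = 2.67e-07) and -0.61 ± 0.10 in IP over IgG (adjusted p = 0.00701).

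eIF2A, a protein outside the eIF2 complex that can bring initiator tRNA, had 173, 152 and 133 CPM in IP, 227, 173 and 200 CPM in IgG and 381, 357 and 350.0 CPM in Input. It was low in both pulldowns, at log2 -1.25 ± 0.09 in IP over Input (adjusted p = 1.64e-06) and -0.86 ± 0.11 in IgG over Input (adjusted p = 0.00478), with -0.39 ± 0.14 in IP over IgG (adjusted p = 0.116). The subunit joining factor eIF5B behaved differently from this group. It had 250.0, 269 and 275 CPM in IP, 169, 206 and 193 CPM in IgG and 278, 267 and 260.0 CPM in Input. IP and Input overlapped (log2 -0.02 ± 0.05, adjusted p = 0.748), while IP was above IgG in every library (log2 0.48 ± 0.10, adjusted p = 0.0277). This was the only factor that edgeR called higher in IP than in IgG, while DESeq2 called 3 (eIF3a, eIF4G1 and eIF5B). Of all genes edgeR called 4.22% higher and DESeq2 8.62%. The call of eIF5B was lost without any 1 of the IP replicates and with a correction for exon length (log2 0.30, adjusted p = 0.17). With that correction eIF5B was also called lower in IP than in Input (log2 -0.24, adjusted p = 0.00537). The other members were eIF5, which triggers GTP hydrolysis by eIF2, eIF2D and eIF6, which keeps free large subunits apart from small ones, with log2 fold changes of -0.40, -0.63 and 0.12 in IP over Input, of which those of eIF5 and eIF2D were called. The annotated exons of eIF5 share 2588 of 3203 bases with CG46312 on the same strand, so its count may not be its own. Smaller overlaps on the same strand were annotated for eIF4G2 (779 of 9097 bases), eIF4EHP (447 of 6418), eIF2gamma (352 of 2203) and eRF1 (189 of 3112).

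In the complex that binds the cap, levels split by subunit. eIF4A (FBgn0001942, chr2L:5981764-5985909, plus strand), the helicase, and eIF4E1 (FBgn0015218, chr3L:9399618-9402460, minus strand), the main cap-binding protein, were called lower in IP in both comparisons. eIF4A had 1416, 1483 and 1420 CPM in IP, 2041, 2047 and 2079 CPM in IgG and 1944, 1945 and 1987 CPM in Input. Its values in IP lay below all others, at log2 -0.44 ± 0.05 SE against Input (adjusted p = 4.92e-05) and -0.51 ± 0.06 against IgG (adjusted p = 0.00155). eIF4E1 had 872, 851 and 888 CPM in IP, 1109, 1031 and 1082 CPM in IgG and 1102, 1094 and 1147 CPM in Input. It too was lowest in IP in every library, by log2 -0.36 ± 0.05 against Input (adjusted p = 0.000176) and -0.30 ± 0.07 against IgG (adjusted p = 0.0285), the second of which was lost in 6 of 17 alternatives, among them the exon length correction (adjusted p = 0.0989) and each fit without 1 of the IP replicates.

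The scaffolds did not share this fall. eIF4G1 (FBgn0023213, chr4:915297-930715, minus strand) had 799, 872 and 871 CPM in IP, 713, 705 and 725 CPM in IgG and 835, 877 and 783 CPM in Input. IP and Input overlapped (log2 0.03 ± 0.06, adjusted p = 0.734), and IP was above IgG in every library without passing the test (log2 0.25 ± 0.07, adjusted p = 0.0694). It was called higher than in IgG in 5 of 17 alternatives, among them DESeq2 (adjusted p = 0.00659) and the replicate block (adjusted p = 0.0499), and stood at log2 -0.01 (adjusted p = 0.983) with the correction for exon length. eIF4G2, a relative known from male meiosis, gave log2 -0.02 ± 0.06 and 0.23 ± 0.10 (adjusted p = 0.828 and 0.176) with 198, 203 and 216 CPM in IP, 163, 183 and 181 CPM in IgG and 204, 221 and 199 CPM in Input. Both have long exonic sequence, 6565 and 9097 bases, and long genes were higher in IP as a whole: the 1238 tested genes over 5000 bases had a median log2 fold change of 0.40 in IP over Input. With a correction for exon length eIF4G1 and eIF4G2 were called lower in IP than in Input (log2 -0.33, adjusted p = 0.00351, and log2 -0.60, adjusted p = 5.87e-05), so their place relative to Input depends on whether length is taken into account. The translational repressor eIF4EHP and the helicase cofactors eIF4H1 and eIF4B had log2 fold changes of -0.16, 0.03 and 0.22 in IP over Input and -0.13, -0.03 and -0.39 in IP over IgG, none called. With the length correction eIF4EHP (log2 -0.51, adjusted p = 0.000909) and eIF4H1 (log2 -0.19, adjusted p = 0.0404) were called lower than in Input. With the replicate block, without the correction, eIF4EHP was called as well (log2 -0.15, adjusted p = 0.0194).

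The duplicated eIF4E genes were at the edge of detection. eIF4E5 had 11, 8 and 28 counts in IP, 0 in each IgG library and 7, 8 and 17 counts in Input. With 3 counts per library as the floor for a 0, its mean was at least 4.09-fold higher in IP than in IgG (adjusted p = 0.0981, not called). The mean was at least 2.69-fold lower in IgG than in Input (adjusted p = 0.0162, lost with the replicate block at adjusted p = 0.376). These bounds leave out the spread between libraries. Of 4 neuron markers 2, nSyb and brp, likewise had 0 in every IgG library. eIF4E3 had 7, 6 and 2 counts in IP, 0 in IgG and 1, 2 and 2 counts in Input, and eIF4E6 had 17 counts in IP replicate 1 and at most 5 in any other library. eIF4E7 had 1 and 2 counts in Input replicates 1 and 2 and 0 elsewhere. eIF4E4, eIF4H2, eIF3d2 and eIF3g2 had 0 counts in all 9 libraries, where 3 counts correspond to 0.0636 to 0.112 CPM. Each of these genes has a well expressed relative (eIF4E1, eIF4H1, eIF3d1 and eIF3g1), and how reads that fit several genes were counted is not stated.

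The mRNAs of the eIF2 and eIF2B subunits were spread further apart in the pulldowns than in the lysate. eIF2alpha (FBgn0261609, chrX:16445176-16446993, minus strand), the subunit whose phosphorylation shuts initiation down, had 135, 117 and 133 CPM in IP, 165, 127 and 177 CPM in IgG and 274, 271 and 276 CPM in Input. It was low in both pulldowns, at log2 -1.09 ± 0.06 SE in IP over Input (adjusted p = 3.69e-07) and -0.81 ± 0.13 in IgG over Input (adjusted p = 0.00976), and IP and IgG overlapped. eIF2beta had 326, 304 and 299 CPM in IP, 468, 394 and 401 CPM in IgG and 329, 323 and 346 CPM in Input. Here IP stayed near Input (log2 -0.10 ± 0.05, adjusted p = 0.132) and IgG was above both, with log2 -0.44 ± 0.09 in IP over IgG (adjusted p = 0.0271) and 0.34 ± 0.08 in IgG over Input (adjusted p = 0.0277). eIF2gamma fell slightly in IP over Input (log2 -0.26 ± 0.05, adjusted p = 0.00217). The highest over the lowest of these 3 subunits per kb of exon was 3.04 to 3.51 in the IP libraries, 3.05 to 4.17 in IgG and 1.83 to 2.12 in Input.

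eIF2B, the exchange factor of eIF2, has 5 subunits, whose mRNAs were nearly equal in the lysate at 29.8 to 38.3 CPM per kb. In Input the highest was 1.26 to 1.32 times the lowest, against 1.97 to 2.5 times in IP and 1.9 to 4.19 times in IgG. Against Input, 4 of the 5 were called lower in IP (log2 -0.48 for eIF2Balpha, -0.46 for eIF2Bgamma, -0.40 for eIF2Bbeta and -0.16 for eIF2Bepsilon), and eIF2Bdelta was called higher. Over all genes 30.6% were called lower and 28.7% higher. eIF2Bdelta had 103, 104 and 114 CPM in IP, 68.6, 129 and 96.1 CPM in IgG and 84.7, 81.6 and 83.5 CPM in Input, a log2 fold change of 0.37 ± 0.06 in IP over Input (adjusted p = 0.000435). IP lay above Input in every library, while the IgG values spanned both groups. In IP over IgG edgeR called 0 of the 5 subunits (1 higher and 1 lower at an unadjusted p under 0.05, 0 by DESeq2 after adjustment). Over all genes only 7.62% were called there by edgeR and 15.7% by DESeq2. The call of eIF2Bepsilon held in only 9 of 17 alternatives. Those of eIF2Balpha, eIF2Bbeta, eIF2Bdelta, eIF2Bepsilon and eIF2gamma were lost in the fit of all 9 libraries together, in which the scatter of IgG enters every comparison. The range within IgG came with single libraries, such as 14.3 CPM of eIF2Bbeta in replicate 3 against 47.1 and 37.3 CPM in replicates 1 and 2.

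**Figure D4:**
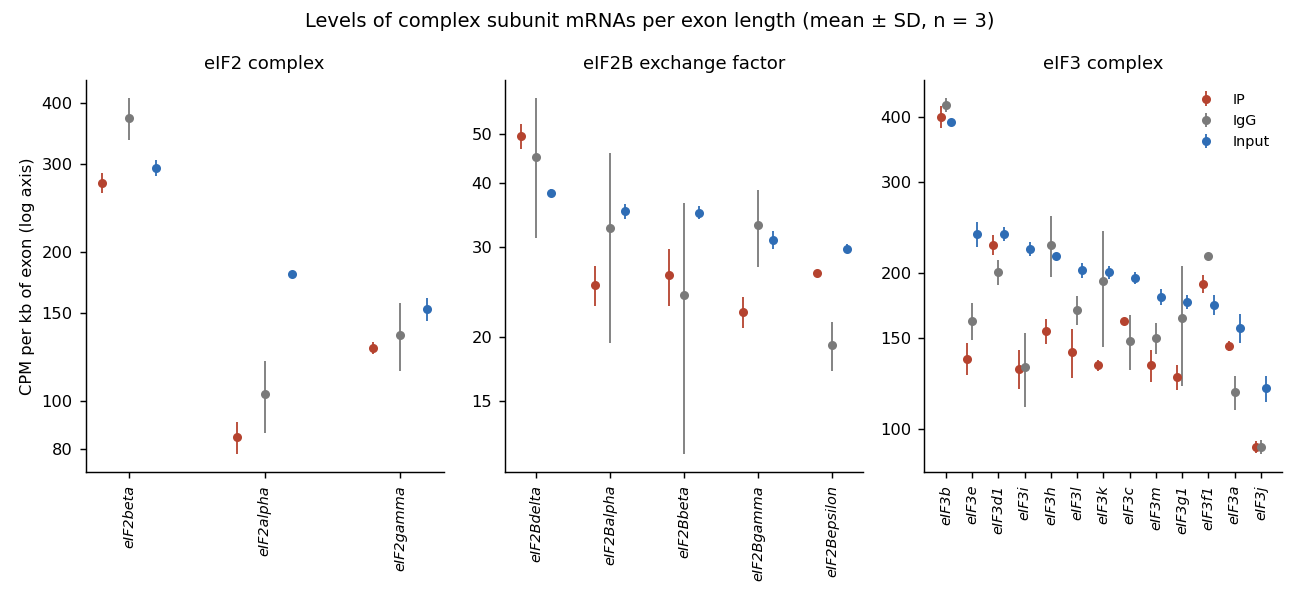
Levels of the subunit mRNAs of eIF2 (left), eIF2B (middle) and eIF3 (right) as CPM per kb of exon on a log axis, mean ± SD of 3 libraries for IP, IgG and Input, with subunits ordered by their level in Input. The Input points of eIF2B lie between 29.8 and 38.3, whereas those of IP run from 22.4 to 49.4.

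In eIF3, the largest initiation complex, 9 of 13 tested subunits were called lower in IP than in Input by edgeR (30.6% of all genes). By the same test 0 were called higher (28.7% of all genes), while 1, eIF3f1, was higher at an unadjusted p under 0.05 and by DESeq2. The lowest were eIF3e (FBgn0025582, chr3L:16785242-16786941, minus strand) and eIF3i (FBgn0015834, chr2L:4966367-4967775, minus strand). eIF3e had 218, 216 and 192 CPM in IP, 225, 265 and 251 CPM in IgG and 382, 361 and 343 CPM in Input, a log2 fold change of -0.80 ± 0.06 SE in IP over Input (adjusted p = 4.28e-06). eIF3i had 165, 157 and 139 CPM in IP, 142, 184 and 140.0 CPM in IgG and 272, 259 and 257 CPM in Input, with -0.77 ± 0.07 (adjusted p = 5.88e-06). For eIF3i the pulldowns could not be separated (log2 -0.01 ± 0.14 in IP over IgG, adjusted p = 0.967), while both lay below the lysate. The other 7 called subunits (eIF3c, eIF3g1, eIF3h, eIF3j, eIF3k, eIF3l and eIF3m) had log2 fold changes of -0.59 to -0.28. The core subunits eIF3a and eIF3b, with -0.12 and 0.03, as well as eIF3d1 (-0.07) and eIF3f1 (0.13), were not called, although eIF3f1 passed with the replicate block (adjusted p = 0.0486).

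Against IgG edgeR called a single eIF3 subunit, eIF3h, as lower (3.40% of all genes were). The shares of all genes called by DESeq2 were 7.03% lower and 8.62% higher. DESeq2 called 2 lower, eIF3h and eIF3k, and 1 higher, eIF3a, and the replicate block and the fit of all 9 libraries also called eIF3k lower and eIF3a higher. eIF3h had 246, 220.0 and 231 CPM in IP, 369, 288 and 364 CPM in IgG and 326, 324 and 319 CPM in Input, a log2 fold change of -0.55 ± 0.12 in IP over IgG (adjusted p = 0.0248). That call was lost in 6 of 17 alternatives. eIF3f1 was the reverse of its complex in IgG over Input, with 282, 279 and 281 CPM in IgG and 236, 227 and 216 CPM in Input (log2 0.31 ± 0.06, adjusted p = 0.0153). There 8 other subunits were called lower in IgG (16.6% of all genes). The highest over the lowest subunit per kb was 4.18 to 4.5 in IP, 4.56 to 4.6 in IgG and 3.05 to 3.42 in Input. Of the duplicated genes eIF3f2 had 0 counts in the IP and IgG libraries and averaged 0.0343 CPM per kb in Input, where eIF3f1 averaged 174.

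Elongation and initiation factors were then compared as classes. As summed CPM, elongation factors stood to initiation factors as 0.472, 0.468 and 0.485 in IP, 0.546, 0.556 and 0.572 in IgG and 0.710, 0.708 and 0.689 in Input. The 3 groups did not overlap, with IP lowest. Most of the distance to Input was carried by eEF2, which made up 50.7 ± 0.762% of the elongation factor CPM in IP, 46.7 ± 2.03% in IgG and 64.8 ± 1.18% in Input (SD, n = 3 each). With eEF2 left out the ratio was 0.234 ± 0.00238 in IP, 0.297 ± 0.00897 in IgG and 0.247 ± 0.00414 in Input, so IP and Input were close and IgG stood above both.

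**Figure D5:**
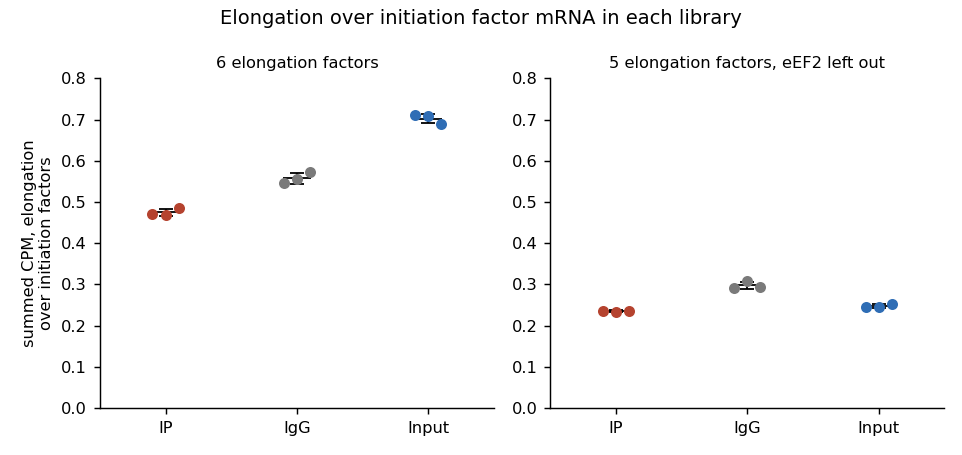
Summed CPM of elongation factors over summed CPM of initiation factors in each library (points) with the mean and SD of 3 (bars), for IP, IgG and Input, with all 6 elongation factors (left) and with eEF2 left out (right). With eEF2 the ratio is 0.475 in IP, 0.558 in IgG and 0.702 in Input, and without it 0.234, 0.297 and 0.247.

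As medians of log2 fold change, the classes were alike in IP over Input, at -0.34 for elongation and -0.36 for initiation factors, a difference of 0.02. In IP over IgG the medians were -0.69 and -0.18, a difference of -0.51, and in IgG over Input they were 0.27 and -0.24, a difference of 0.52. The last 2 differences were -0.37 and 0.42 over members with a mean of at least 10 CPM, which left 5 elongation factors, and -0.20 and 0.19 without IgG replicate 3. With the replicate block the difference in IgG over Input was 0.19. Within same-numbered libraries the median of elongation factors minus that of initiation factors was -0.22, -0.27 and -0.39 in IP over IgG and 0.18, 0.27 and 0.10 in IgG over Input, so the sign was shared by all 3 pairs while the size was smaller than in the fits. No test was run on these scores.

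The elongation factors were also set beside the ribosomal protein genes, the other mRNAs known for terminal oligopyrimidine tracts, with no test of the difference between the lists. Of 81 tested cytoplasmic ribosomal protein genes, 79 were called lower in IP than in Input (30.6% of all genes) and 76 lower than in IgG (3.40%). Their median log2 fold changes were -1.37 and -1.16. The corresponding medians of elongation factors were -0.34 and -0.69, and those of release factors were -1.38 and -0.49. Together the ribosomal protein genes took 4.0 ± 0.284% of counts in IP, 7.27 ± 0.963% in IgG and 9.02 ± 0.125% in Input, against 0.548 ± 0.00518%, 0.621 ± 0.0446% and 0.948 ± 0.0233% for elongation factors.

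Fold changes moved with exon length across the transcriptome. Genes over 5000 exonic bases had a median log2 fold change of 0.40 in IP over Input and 0.32 in IP over IgG. The 3 factors of that length had -0.02 and 0.23. Genes of up to 1000 bases had -0.07 in IP over Input, -0.33 in IP over IgG and 0.26 in IgG over Input. The 4 factors of that length (eEF1beta, eEF1delta, eIF1 and eIF3k) had medians of -0.85, -0.68 and -0.17. Between 1000 and 2000 bases the medians were -0.45 for 20 factors and -0.07 for all genes in IP over Input, and between 3000 and 5000 bases they were -0.34 for 8 factors and 0.05 for all genes. Between 2000 and 3000 bases they were -0.16 for 9 factors and -0.03 for all genes. In IP over Input the median of the factors thus lay below that of genes of their own length in each bin. In IgG over Input the 9 factors of 2000 to 3000 bases lay above, at -0.05 against -0.11 for all genes. With the loess correction for exon length 37 factors were called in IP over Input, 4 higher and 33 lower, where the shares over all genes were 24.2% and 34.6%. For IP over IgG there were 8 calls, all lower, where the shares over all genes were 3.02% lower and 0.583% higher. The share of higher calls over all genes in IP over IgG was 55.4% without and 16.2% with that correction.

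Other genes of the pathway, taken from a fixed list of translation partners and regulators, did not all follow the factors. Of 22 tested, 11 were called lower and 7 higher in IP than in Input (30.6% and 28.7% of all genes). Against IgG 4 were called lower and 5 higher (3.40% and 4.22% of all genes). Those lower in both were pAbp, kra, Rack1 and pix. pAbp, the poly(A)-binding protein, had 864, 894 and 747 CPM in IP, 1425, 1180 and 1248 CPM in IgG and 3050, 2976 and 2863 CPM in Input, the largest fall of the list (log2 -1.83 ± 0.08 SE in IP over Input, adjusted p = 7.65e-08, and -0.62 ± 0.10 in IP over IgG, adjusted p = 0.00693). Rack1, a protein of the small ribosomal subunit, and pix, the fly ABCE1 that recycles ribosomes, gave log2 -0.41 and -0.63 against Input and -0.53 and -0.45 against IgG, and kra, a relative of eIF5, gave -0.30 and -0.33. Of these calls only that of pix against IgG was lost with the length correction (adjusted p = 0.0858).

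Those higher in both were NAT1, PEK and larp. NAT1, an eIF4G relative that serves translation without the cap, had 1681, 1568 and 1723 CPM in IP, 1178, 1014 and 1133 CPM in IgG and 1252, 1262 and 1214 CPM in Input (log2 0.42 ± 0.06 SE in IP over Input, adjusted p = 0.000137, and 0.58 ± 0.08 in IP over IgG, adjusted p = 0.0032). PEK, a kinase of eIF2alpha, gave log2 0.45 and 0.62, and larp gave 0.36 and 0.49. These are long genes, of 5665, 4873 and 9126 exonic bases for NAT1, PEK and larp, and with the correction for exon length none was called against IgG (log2 0.32, 0.39 and 0.27). Against Input PEK was then still called higher (log2 0.21, adjusted p = 0.008), NAT1 was not called (log2 0.13, adjusted p = 0.163) and larp was called lower (log2 -0.24, adjusted p = 0.0193). The helicase bel, the fly DDX3, was called lower than in Input (log2 -0.23, adjusted p = 0.00796) and higher than in IgG (log2 0.36, adjusted p = 0.0386), the second lost with the length correction (adjusted p = 0.132). Thor, the fly 4E-BP that holds eIF4E1 inactive, was called higher in both pulldowns than in Input (log2 1.48 ± 0.08 in IP, adjusted p = 3.63e-07, and 1.27 ± 0.18 in IgG, adjusted p = 0.00685), with log2 0.21 ± 0.18 in IP over IgG (adjusted p = 0.535). cup, another eIF4E1 partner of the germline, was listed at 0 in all 9 libraries. All 4306 of its exonic bases lie within CG34310 on the same strand, so the 0 says nothing of its level.

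The mitochondrial counterparts of these factors were fewer. Of 9 tested, 4 were called lower and 1 higher in IP than in Input (30.6% and 28.7% of all genes). Against IgG the only one called was mEFTu2, an organelle elongation factor (7.62% of all genes were). It had 16.9, 19.9 and 15.1 CPM in IP, 34.5, 58.2 and 31.5 CPM in IgG and 37.3, 34.0 and 33.5 CPM in Input (log2 -1.01 ± 0.12 SE in IP over Input, adjusted p = 4.11e-05, and -1.26 ± 0.29 in IP over IgG, adjusted p = 0.0371). mEFG1, the mitochondrial translocase, was low in both pulldowns, as eEF2 was in the cytoplasm, with 18.3, 16 and 21.6 CPM in IP, 15.2, 22 and 19.9 CPM in IgG and 53.0, 51.3 and 50.6 CPM in Input (log2 -1.47 ± 0.11 in IP over Input, adjusted p = 2.66e-06).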

How the data were processed

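Groups and replicate numbers follow the sample titles. For each of the 9 libraries the authors deposited a table of whole-number read counts by FlyBase ID, not normalized. The submitters' processing notes name HISAT2 2.1.0, featureCounts 1.4.6 and the build dm6, without their roles or order. The strand setting and the treatment of reads shared between genes are not given in the sources used here, so overlapping and near-identical genes may share counts. Symbols, coordinates (1-based) and exon lengths came from Ensembl's BDGP6 annotation, which named 16647 of 17024 IDs.

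Each comparison was fitted on its 6 libraries in edgeR 4.0.16 (R 4.3.3) with robust quasi-likelihood tests, two-sided, after TMM scaling over all 9. An expression filter (minimum count 10, smallest group 3) kept 8789 genes and set aside 8235. Standard errors were derived from the test statistic. Classes were described by counts and medians. The members and all gene lists were chosen with earlier results of these data known. Genes named individually were all elongation and release factors, the eIF4 and duplicated eIF3 families, and the 5 initiation factors with the largest called rises and falls in each comparison. Others were named to complete a complex or a count, after their values were seen.

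Departures from the group mean of log2 CPM correlated across genes between same-numbered libraries of IP and Input (Pearson's r 0.368, 0.33 and 0.466). The correlations were weaker between IgG and Input (0.114, 0.101 and 0.237) and between IP and IgG (0.109, 0.0368 and 0.254). The fits as given took no pairs, so their p-values leave this out. Pairs enter only the replicate block, an alternative in every comparison, and the differences within same-numbered libraries. Every pair of replicate libraries differed beyond counting noise (chi-square per degree of freedom 7 to 305).

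Alternatives were DESeq2 1.42.0, other size factors, other filters, 1 fit of all libraries, the replicate block, a loess correction for exon length (span 0.3), each replicate left out, and, added after the data were seen, FBgn000003 left out, eEF2 left out and other run lengths. No value came from libraries of other series. On simulated data for 8789 genes, 200 of them changed by 2-fold, the fits recovered 72.5% of these in IP over Input, 43% in IP over IgG and 41.5% in IgG over Input.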

Additional observations from a re-analysis of the deposited data

How the results depend on the processing

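Of the factors called, 23 of 29 in IP over Input, 4 of 10 in IP over IgG (eEF1beta, eEF1gamma, eIF1 and eIF4A) and 4 of 25 in IgG over Input (eEF2, eIF2A, eRF1 and eRF3) kept their call in every alternative, all of them lower. The biological coefficient of variation was 0.1507 in IP over Input, 0.5956 in IP over IgG and 0.546 in IgG over Input. The number of factors called in IP over IgG was 19 in the fit of all 9 libraries, 16 with the replicate block (3 higher and 13 lower, with eEF2 at adjusted p = 0.00206 and eRF3 at adjusted p = 0.0113) and 5 to 12 with 1 replicate left out. Calls over all genes moved too, to 22.9% in the fit of all 9 libraries, 13.7% with the block and 15.7% by DESeq2, against 7.62% as given. With 1 replicate left out they were 3.04 to 10.6%. In IgG over Input 18 factors were called with the replicate block and 5 to 25 with 1 replicate left out. Calls over all genes there were 22.1% with the block and 4.99 to 37.6% with 1 replicate left out. DESeq2 called 30, 15 and 25 factors in IP over Input, IP over IgG and IgG over Input. Its shares over all genes were 61.3%, 15.7% and 29.8%. For scaling by library totals the median of all genes moved to 0.1, 0.217 and -0.137. The split of all calls in IP over IgG was then 86.2% higher, against 55.4% with TMM, and in IgG over Input it was 25.8% higher with library totals, 49.8% with DESeq2 and 38.4% in the fit as given.

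The difference of the class medians, elongation minus initiation, in IP over Input ran from -0.16 to 0.07 with 1 replicate left out and so had no stable sign. In IP over IgG it was -0.51, and -0.37 with a mean of at least 50 counts or at least 10 CPM, -0.24 with the replicate block, -0.26 with the block and the exon length correction, -0.65 without eEF2 and -0.51 to -0.20 with 1 replicate left out. In IgG over Input it was 0.52, and 0.42 with either higher minimum, 0.19 with the block, 0.22 with the block and the length correction, 0.62 without eEF2 and 0.19 to 0.56 with 1 replicate left out. The cause was not tested.

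Most log2 fold changes of single genes that changed sign were uncalled values near 0. Those of eIF4G1 and eIF4H1 with the exon length correction were exceptions, called lower in IP than in Input. The scarce eEF1alpha2 changed sign at larger values, none of them called. With the exon length correction eIF4G1 and eIF4H1 were -0.33 and -0.19 in IP over Input, with and without the block, and eIF3i, eIF4G1 and eIF4G2 were 0.00, -0.01 and -0.01 in IP over IgG; with the block added eIF3i was 0.01 and eIF4G1 -0.00. With library totals eEF1alpha2, eIF3d1, eIF4G2 and eIF5B were 0.06, 0.02, 0.07 and 0.07 in IP over Input, eEF1delta, eIF3f1, eIF3i, eIF4EHP and eIF4H1 were 0.09, 0.04, 0.21, 0.08 and 0.18 in IP over IgG, and eIF3h, eIF4A and eIF4H1 were -0.05, -0.06 and -0.07 in IgG over Input. With DESeq2 size factors eEF1alpha2, eIF4G2 and eIF5B were 0.00, 0.01 and 0.01 in IP over Input, and with TMM factors from 6 libraries eIF3i was 0.01 in IP over IgG. eEF1alpha2 was 1.52 in IP over IgG and -1.74 in IgG over Input with the block, 1.36 and -1.65 with the block and the length correction, and 2.67 and -2.71 without IgG replicate 3. With 1 replicate left out, values in IP over Input ran from -0.64 to 0.45 for eEF1alpha2, -0.05 to 0.03 for eIF4G2, -0.05 to 0.02 for eIF5B, -0.03 to 1.01 for eIF4E5, -0.01 to 0.07 for eIF4H1 and -0.01 to 0.07 for eIF4G1. In IP over IgG they ran from -2.65 to 2.67 for eEF1alpha2, -0.07 to 0.01 for eIF4H1, -0.08 to 0.13 for eIF3i, -0.06 to 0.38 for eIF2Bdelta and -0.28 to 0.02 for eIF4EHP, and in IgG over Input from -2.71 to 2.60 for eEF1alpha2, -0.31 to 0.07 for eIF3g1, -0.02 to 0.43 for eIF2Bdelta and -0.18 to 0.13 for eIF4EHP.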
